A study of Mus musculus with 6 samples.

Results

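The genes of cholesterol and fatty acid synthesis that are driven by sterol regulatory element-binding proteins (SREBPs) were examined in bulk RNA-Seq of mouse gastrocnemius/plantaris (GP) muscle. The 30 genes were chosen by their symbols, and all 30 were present among the 24421 genes listed and passed the expression filter, which kept 14180 genes. They comprise 7 genes of the mevalonate pathway, 11 genes from squalene to cholesterol, 5 regulators of SREBP, 1 sterol carrier and 6 genes of fatty acid synthesis. The 6 libraries came from 6 mice labelled with the strain background B6C3F1, at 5 months of age and 3 months after tamoxifen. The labels give 3 mice as Ctrl (Net39 fl/fl without Cre) and 3 as cKO (HSACreERT2;Net39 fl/fl), and Net39 counts, given next, go against these labels. By the labels both groups carried the floxed Net39 alleles, in which the first exon is flanked by loxP sites, and both were male. The Cre transgene is driven by the human skeletal actin promoter, is induced by tamoxifen and is active in muscle fibers but not in satellite cells. The comparison asks how the loss of Net39, a protein of the nuclear envelope, changes gene expression in adult muscle.

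The targeted gene went against the labels. Net39, listed under its older symbol Ppapdc3, was counted 310, 321 and 217 times in Ctrl-labelled libraries 1, 2 and 3, but 5365, 4340 and 6080 times in cKO-labelled libraries 1, 2 and 3. Its log2 fold change, labelled cKO over labelled Ctrl, was 4.22 (SE 0.17, edgeR adjusted p = 0.000161). Every direction below is therefore given for the labelled groups, and the libraries with low Net39 are the Ctrl-labelled ones. Whether the labels of the groups were exchanged was not tested, and every direction would turn if they were. The total count was 33860001 to 38201728 in the Ctrl-labelled libraries and 39191239 to 48839910 in the cKO-labelled ones. The 9 fiber genes read (Acta1, Ckm, Mb, Tnnt3, Mylpf, Myh4, Myh1, Des and Ttn) were abundant in each library and summed to 100849 to 121720 CPM (counts scaled to library size) in the Ctrl-labelled libraries and to 149377 to 196420 CPM in the cKO-labelled ones. Of these 9, 4 were higher in the cKO-labelled libraries at an adjusted p under 0.05 and Myh1 was lower, against 12.6% and 11.8% of all genes tested. The largest part of the difference in the sums was Myh4, with means of 25521 and 70116 CPM. The 7 slow-fiber genes read summed to 8168 to 13643 CPM in the Ctrl-labelled libraries and to 344 to 3300 CPM in the cKO-labelled ones. In all 7, each cKO-labelled library was below each Ctrl-labelled one, and the median log2 fold change was -2.53. The groups did not overlap in 43.9% of all genes tested. At an adjusted p under 0.05, 3 of the 7 were lower, against 11.8% of all genes tested. The part of these differences in the results below was not tested. In whole muscle, fewer cells of a type and less RNA per cell cannot be told apart.

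Cells make cholesterol from acetyl-CoA by way of mevalonate and squalene, and make fatty acids from acetyl-CoA by way of malonyl-CoA. SREBPs are transcription factors held in the endoplasmic reticulum. When sterols are low, the escort protein SCAP carries them to the Golgi, where they are cleaved and released to the nucleus. INSIG proteins retain SCAP when sterols are plentiful. SREBP-2, encoded by Srebf2, acts mainly on sterol genes, and SREBP-1c, a product of Srebf1, acts mainly on fatty acid genes and responds to insulin. Skeletal muscle expresses both pathways at lower rates than liver or adipose tissue.

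Of the 30 genes, 4 were higher and 4 were lower in the cKO-labelled libraries at an adjusted p under 0.05. Pmvk, Fdft1, Hsd17b7 and Srebf1 were higher, and Mvk, Mvd, Acaca and Fasn were lower. Of the lower genes, only Mvd passed when the library labelled Ctrl 1, cKO 1 or cKO 3 was left out, and 2 genes were lower without Ctrl 2. Across all genes tested, 12.6% were higher and 11.8% were lower by the same rule, so the genes of the pathway passed at about the rate of genes at large. Only Hsd17b7 among the higher and Mvd among the lower also differed by more than 2-fold, against 2.13% and 3.92% of all genes tested. In 15 of the 30 genes the groups had no overlap in CPM, 9 higher and 6 lower in the cKO-labelled libraries, against 43.9% of all genes tested. The median log2 fold change was -0.09 over the 30 genes and -0.015 over all genes tested, and that of the 30 genes was 0.052 without the library labelled Ctrl 3. The 30 genes thus did not share a direction, and consecutive steps could differ in sign. With libraries scaled by total counts alone, 3 genes were higher and 7 lower, and the median over all genes tested shifted to -0.27.

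**Figure D1:**
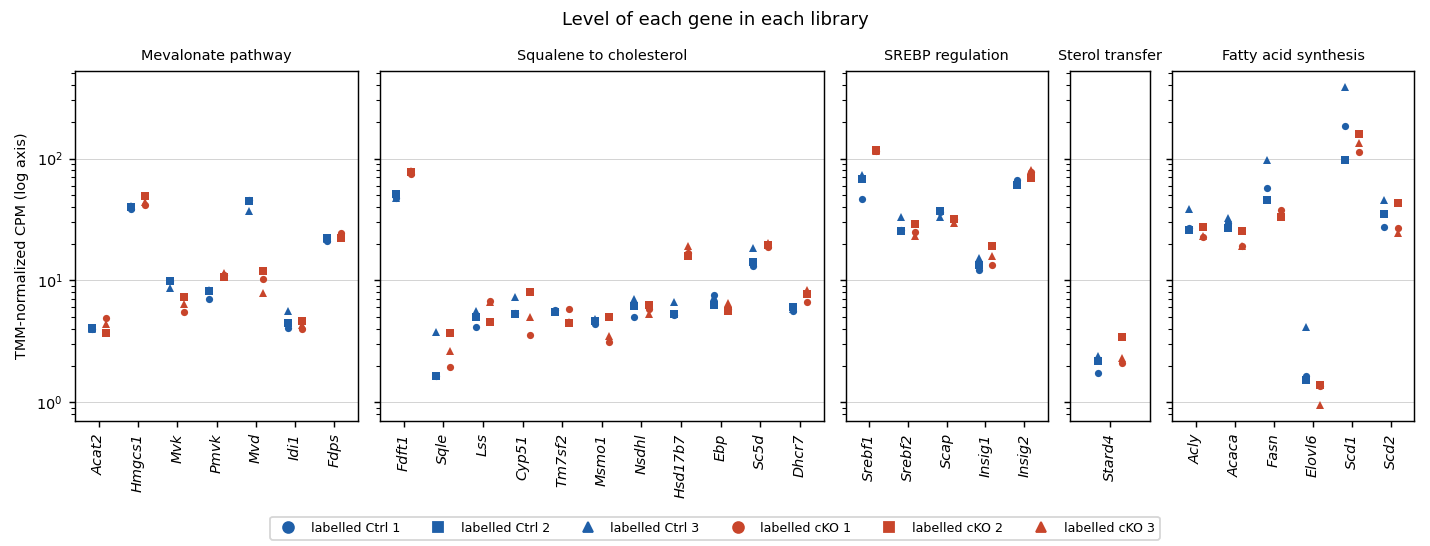
CPM normalized by the trimmed mean of M values (TMM) of the 30 genes (log axis) in the 3 libraries labelled Ctrl (blue) and the 3 labelled cKO (red), with 1 point per library and 1 panel per role. The libraries of the groups lie far apart for Mvd (37.3 to 46.0 against 7.88 to 11.9) and Hsd17b7 (5.16 to 6.70 against 16.0 to 19.2), and the library labelled Ctrl 3 is the highest point of its group for all 6 genes of fatty acid synthesis.

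In the mevalonate pathway, 1 of 7 genes was higher and 2 of 7 were lower in the cKO-labelled libraries, against 12.6% and 11.8% of all genes tested. The 3 genes that passed encode 3 consecutive enzymes. Mvd, which encodes mevalonate diphosphate decarboxylase, had 46.0, 44.4 and 37.3 CPM in Ctrl-labelled libraries 1, 2 and 3 and 10.3, 11.9 and 7.88 CPM in cKO-labelled libraries 1, 2 and 3. The lowest library labelled Ctrl was thus well above the highest labelled cKO. The log2 fold change was -2.08 (SE 0.16, edgeR adjusted p = 0.000897), and Mvd was 4.24-fold higher in the Ctrl-labelled libraries. The gene lies on the minus strand of chromosome 8 from 122433601 to 122443422 (GRCm38), and no 75-base stretch of its main transcript was found in another gene's transcripts. Mvk encodes mevalonate kinase, which acts before Pmvk and Mvd. It had 9.96, 9.97 and 8.64 CPM in the Ctrl-labelled libraries and 5.53, 7.37 and 6.43 CPM in the cKO-labelled ones. The groups did not overlap, and the log2 fold change was -0.56 (SE 0.14, edgeR adjusted p = 0.0252). The adjusted p rose to 0.0878, 0.0811, 0.0710 and 0.0787 when the library labelled Ctrl 1, Ctrl 2, cKO 1 or cKO 3 was left out.

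Pmvk, encoding the phosphomevalonate kinase between these 2 steps, went the other way. It had 7.0, 8.16 and 8.31 CPM in the Ctrl-labelled libraries and 11, 10.6 and 11.5 CPM in the cKO-labelled ones. No value of one group reached the other, and the log2 fold change was 0.49 (SE 0.10, edgeR adjusted p = 0.0169). Leaving out Ctrl 1, cKO 1 or cKO 3 gave adjusted p of 0.0598, 0.0533 and 0.0674, and total counts gave 0.129. Mvk lies on the plus strand of chromosome 5 from 114444269 to 114460591, and Pmvk on the plus strand of chromosome 3 from 89454541 to 89469013.

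The other 4 mevalonate genes did not pass. Hmgcs1, encoding the cytosolic synthase that makes HMG-CoA, had 38.3, 40.1 and 40.9 CPM in the Ctrl-labelled libraries and 41.2, 49.0 and 43.7 CPM in the cKO-labelled ones. These values did not overlap, but the log2 fold change was only 0.17 (SE 0.08, edgeR adjusted p = 0.186) and was 0.080 without the library labelled cKO 2 and -0.080 with total counts. Fdps, for farnesyl diphosphate synthase, also had values that did not overlap, at 20.9 to 22.2 and 22.3 to 24.4 CPM (log2 fold change 0.11, edgeR adjusted p = 0.340; 0.063 without cKO 1 and -0.15 with total counts). In 80.4% of the 75-base stretches of its main transcript, Fdps shares sequence with other gene models, so its counts are uncertain. Acat2, which encodes the thiolase of the first step, and Idi1, which encodes the isomerase that follows Mvd, had groups that overlapped. Their log2 fold changes were 0.11 and -0.12. That of Acat2 was 0.0013 without the library labelled cKO 1 and -0.16 with total counts, and that of Idi1 was 0.024 without Ctrl 3. Acat2 shares 40.7% of such stretches with Acat3 and the neighboring Tcp1, and Idi1 shares 29.1% with other models.

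Sequences upstream of the start sites were examined because SREBPs act at promoters together with NF-Y, which binds CCAAT, and Sp1, which binds GGGCGG. RefSeq windows of GRCm38.p6, from 250 bases before to 50 after each start, were given for 24 of the 30 genes. Scd1, Scd2, Sqle, Fdft1, Fdps and Stard4 had no entry in the table used. The letters CCAAT stood on either strand in a window of 20 of the 24 genes (83.3%), 41.1% of all 27025 genes in the table and 42.0% of the 10688 tested genes in it. GGGCGG stood in 20 of the 24 (83.3%), 38.2% of all genes and 66.9% of tested genes. The palindrome CACGTG stood in 5 of the 24 (20.8%), 8.09% of all genes and 11.5% of tested genes. The sterol regulatory element core TCACNCCAC stood in 1 of the 24, Hmgcs1, and in 1.44% of all genes. Both strands were searched, matches of different motifs were counted separately, and they may share letters, as CCGCCC and CCAAT can. A match describes the letters only, and no match says nothing about binding. The upstream stretches shown are those of Mvd and Hsd17b7, the 2 genes that differed by more than 2-fold, and of Hmgcs1, the 1 gene with the element core. They read 5′ to 3′ on the gene's strand and leave out annotated exons. Capitals mark CCAAT, or ATTGG where it lies on the other strand, and in Hmgcs1 also TCACCCCAC, the form of the core found there.
Mvd, chr8:122443423-122443672, minus strand: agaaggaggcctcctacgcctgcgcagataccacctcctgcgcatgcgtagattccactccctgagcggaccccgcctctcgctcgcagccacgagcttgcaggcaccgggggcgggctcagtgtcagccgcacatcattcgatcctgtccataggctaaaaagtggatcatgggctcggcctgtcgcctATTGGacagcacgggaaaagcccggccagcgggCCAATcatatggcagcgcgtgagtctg
Hsd17b7, chr1:169969242-169969408, minus strand: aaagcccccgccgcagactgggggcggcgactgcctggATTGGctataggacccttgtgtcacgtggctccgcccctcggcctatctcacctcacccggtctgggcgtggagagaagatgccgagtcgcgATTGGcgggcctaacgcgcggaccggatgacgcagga
Hmgcs1, chr13:119690101-119690350, plus strand: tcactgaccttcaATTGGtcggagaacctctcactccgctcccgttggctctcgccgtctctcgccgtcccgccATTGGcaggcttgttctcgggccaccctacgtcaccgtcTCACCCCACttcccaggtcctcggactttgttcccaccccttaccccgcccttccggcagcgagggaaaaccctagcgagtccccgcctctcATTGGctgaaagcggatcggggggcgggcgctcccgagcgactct
The stretches of Mvd and Hsd17b7, whose levels differed in opposite directions, hold 2 CCAAT matches each, and that of Hmgcs1, whose level did not pass the test, holds 3. The stretch of Hsd17b7 has 167 bases and the others 250. The whole windows hold 2 matches for Mvd, 3 for Hsd17b7 and 4 for Hmgcs1.

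From squalene to cholesterol, 2 of 11 genes were higher in the cKO-labelled libraries and 0 were lower at an adjusted p under 0.05, against 12.6% and 11.8% of all genes tested. Hsd17b7 encodes the ketosteroid reductase of sterol demethylation, which can also convert estrone to estradiol. It had 5.16, 5.28 and 6.70 CPM in the Ctrl-labelled libraries and 16.8, 16.0 and 19.2 CPM in the cKO-labelled ones. Each library labelled cKO was above each labelled Ctrl, and the log2 fold change was 1.6 (SE 0.14, edgeR adjusted p = 0.00121), or 3.03-fold. Hsd17b7 lies on the minus strand of chromosome 1 from 169949535 to 169969241, and its main transcript shared no 75-base stretch with another gene. Msmo1 and Nsdhl encode the enzymes that work with it at the same demethylation. Msmo1 had 4.39, 4.66 and 4.84 CPM in the Ctrl-labelled libraries and 3.13, 5.01 and 3.5 CPM in the cKO-labelled ones, and Nsdhl had 5.03 to 6.97 and 5.32 to 6.23 CPM. Their groups overlapped, with log2 fold changes of -0.25 (SE 0.19, edgeR adjusted p = 0.371) and -0.06 (SE 0.15, edgeR adjusted p = 0.793), that of Msmo1 was between -0.49 (without cKO 2) and -0.14 (without cKO 1) with 1 library left out, and that of Nsdhl was 0.052 without the library labelled Ctrl 3. The large difference of Hsd17b7 was thus not seen in the other two genes of this reaction.

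Fdft1 encodes squalene synthase, the first enzyme committed to sterols. It had 47.8, 51.4 and 47.3 CPM in the Ctrl-labelled libraries and 73.9, 76.8 and 79.4 CPM in the cKO-labelled ones. The values within each group lay close together, and the log2 fold change was 0.65 (SE 0.07, edgeR adjusted p = 0.00265). Fdft1 lies on the minus strand of chromosome 14 from 63145150 to 63179578, and 774 bases of its exons overlap Ctsb, which runs the other way. Ctsb had 279 to 299 CPM in the Ctrl-labelled libraries and 289 to 330 CPM in the cKO-labelled ones (log2 fold change 0.10, edgeR adjusted p = 0.428). Without strand in the counting, reads of this stretch cannot be told apart.

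The other 8 genes of this arm did not pass. Sc5d, a sterol desaturase, had 13.1, 14.2 and 18.3 CPM in the Ctrl-labelled libraries and 18.7, 19.5 and 20.4 CPM in the cKO-labelled ones. Dhcr7, the reductase of the last step, had 5.57, 6.01 and 5.77 CPM against 6.69, 7.76 and 8.32 CPM. Neither gene overlapped between the groups. Their log2 fold changes were 0.36 (SE 0.13, edgeR adjusted p = 0.0897) and 0.39 (SE 0.12, edgeR adjusted p = 0.0528), and both lay near the threshold. Leaving out the library labelled Ctrl 3 gave Sc5d an edgeR adjusted p of 0.0138, and leaving out any other gave 0.139 to 0.238. Dhcr7 had an adjusted p of 0.0398 with DESeq2 and 0.0483 with its size factors in edgeR, and between 0.0542 and 0.191 with 1 library left out. With total counts the log2 fold changes fell to 0.11 for Sc5d (edgeR adjusted p = 0.560) and 0.14 for Dhcr7 (edgeR adjusted p = 0.465). Squalene epoxidase (Sqle) had 1.63, 1.64 and 3.77 CPM in the Ctrl-labelled libraries and 1.95, 3.69 and 2.61 CPM in the cKO-labelled ones, and lanosterol demethylase (Cyp51) had 5.36, 5.31 and 7.33 CPM and 3.58, 8.0 and 4.98 CPM. These genes varied more within a group than between the groups: Sqle spanned 2.31-fold and 1.89-fold within the Ctrl-labelled and cKO-labelled libraries and Cyp51 1.38-fold and 2.23-fold. They had log2 fold changes of 0.23 (SE 0.39) and -0.12 (SE 0.29). The sign of Sqle turned without the library labelled cKO 2 (-0.045) and with total counts (-0.00093), and that of Cyp51 without Ctrl 3 (0.052) or cKO 1 (0.10). Lanosterol synthase (Lss), the reductase Tm7sf2 and the isomerase Ebp had overlapping groups and log2 fold changes of 0.28 (0.019 with total counts), -0.18 and -0.23. With 1 library left out these were 0.17 to 0.43, -0.32 to -0.13 and -0.31 to -0.17. Tm7sf2 and Ebp passed with total counts, with edgeR adjusted p of 0.0408 and 0.0321.

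Summed over the 18 sterol enzymes, CPM was 236, 245 and 246 in the Ctrl-labelled libraries and 250, 267 and 263 in the cKO-labelled ones. Without Mvd the sums were 190, 201 and 209 and 240, 255 and 255. The group means were 242 and 260 CPM with Mvd and 200 and 250 CPM without it, and neither sum overlapped between the groups. In the cKO-labelled libraries Mvd was lower while Fdft1 and Hsd17b7 were higher. The sums rest mostly on the few enzymes with many reads.

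**Figure D2:**
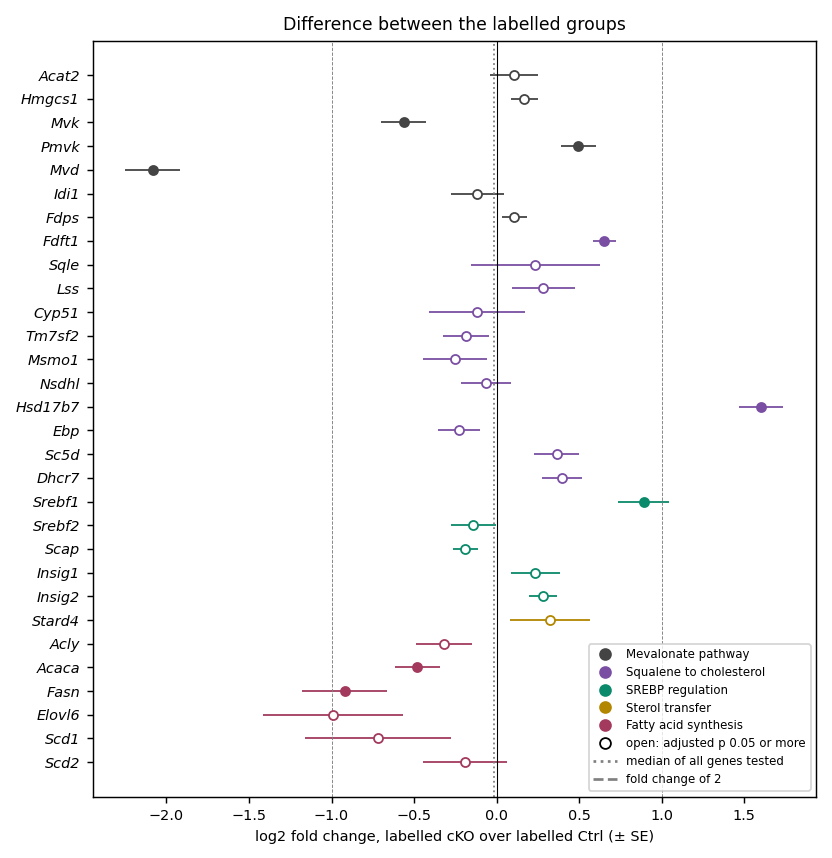
Log2 fold change of the 30 genes, labelled cKO over labelled Ctrl, as points with SE from edgeR's quasi-likelihood test, in the order of the pathway and colored by role. Filled points had an adjusted p under 0.05, the dotted line is the median of all genes tested (-0.015), and dashed lines mark a 2-fold difference; Mvd (-2.08) and Hsd17b7 (1.6) lie beyond them, and all 6 genes of fatty acid synthesis lie left of 0.

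Among the regulators, Srebf1 alone of the 5 genes passed, and it was higher in the cKO-labelled libraries, as were 12.6% of all genes tested. Srebf1 had 46.8, 67.3 and 72.7 CPM in the Ctrl-labelled libraries and 115, 116 and 115 CPM in the cKO-labelled ones. The libraries labelled cKO hardly differed from each other, and all were above the highest labelled Ctrl. The log2 fold change was 0.89 (SE 0.16, edgeR adjusted p = 0.00918), and it ranged from 0.72 without the library labelled Ctrl 1 to 1.02 without Ctrl 3, and was 0.64 with total counts. The gene lies on the minus strand of chromosome 11 from 60199089 to 60222581, and counts per gene do not separate the transcripts for SREBP-1a and SREBP-1c. Srebf2 had 26.0, 25.4 and 33.4 CPM in the Ctrl-labelled libraries and 24.9, 29.0 and 23.0 CPM in the cKO-labelled ones. Its groups overlapped, with a log2 fold change of -0.14 (SE 0.14, edgeR adjusted p = 0.483), which was -0.0029 without the library labelled Ctrl 3.

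Insig2 had 66.3, 60.4 and 60.5 CPM in the Ctrl-labelled libraries and 77.5, 68.9 and 80.8 CPM in the cKO-labelled ones. The values did not overlap, with a log2 fold change of 0.28 (SE 0.09) and an edgeR adjusted p of 0.0539, which was 0.0360 without the library labelled cKO 2 and 0.0337 with DESeq2, but between 0.0841 and 0.204 without any other library. With total counts the log2 fold change was 0.020 (edgeR adjusted p = 0.867). Insig1, itself a target of SREBP, had 12.3, 13.4 and 15.4 CPM and 13.4, 19.1 and 15.8 CPM. Its groups overlapped, and the log2 fold change of 0.23 (edgeR adjusted p = 0.288) was 0.080 without the library labelled cKO 2 and -0.0094 with total counts. Scap had 36.4, 36.8 and 33.3 CPM in the Ctrl-labelled libraries and 32.0, 31.6 and 29.7 CPM in the cKO-labelled ones. These did not overlap, with a log2 fold change of -0.19 (SE 0.07, edgeR adjusted p = 0.105), and Scap passed with total counts (edgeR adjusted p = 0.0128). Stard4, which carries sterols between membranes, had 1.74, 2.17 and 2.38 CPM and 2.09, 3.45 and 2.32 CPM, with overlapping groups. The log2 fold change of 0.32 (SE 0.24, edgeR adjusted p = 0.362) was 0.060 without the library labelled cKO 2, 0.21 without Ctrl 1 and 0.085 with total counts.

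All 6 genes of fatty acid synthesis had fitted values lower in the cKO-labelled libraries, as had 7337 of the 14180 genes tested, and 2 of 6 passed the test in that direction, against 11.8% of all genes tested. Their median log2 fold change was -0.60, and -0.23 without the library labelled Ctrl 3. Fasn, the fatty acid synthase, had 57.5, 45.8 and 97.6 CPM in the Ctrl-labelled libraries and 37.6, 33 and 35.5 CPM in the cKO-labelled ones. The groups did not overlap, although the Ctrl-labelled libraries differed 2.13-fold among themselves. The log2 fold change was -0.92 (SE 0.26, edgeR adjusted p = 0.0402). Omitting library Ctrl 3, the highest, gave -0.54 (edgeR adjusted p = 0.0240), and omitting Ctrl 2 gave -1.13 (edgeR adjusted p = 0.0287). Leaving out Ctrl 1, cKO 1, cKO 2 or cKO 3 gave adjusted p of 0.0748, 0.0938, 0.0787 and 0.102, and a robust fit gave 0.0562. Acaca, the acetyl-CoA carboxylase that makes malonyl-CoA in the cytosol, had 29.3, 27.1 and 32.5 CPM and 19.0, 25.6 and 19.2 CPM. Its groups came close to each other without overlapping, and the log2 fold change was -0.48 (SE 0.14, edgeR adjusted p = 0.0420). The adjusted p was 0.107, 0.0691, 0.0983, 0.117 and 0.124 without Ctrl 1, Ctrl 2, Ctrl 3, cKO 1 or cKO 3. Fasn lies on the minus strand of chromosome 11 from 120805846 to 120824547, and Acaca on the plus strand of the same chromosome from 84129672 to 84401651. Acaca shares 47.4% of its 75-base stretches with the gene model Gm5182, whereas Fasn shares none.

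The other 4 genes did not pass. Elovl6, which lengthens palmitate, had 1.63, 1.52 and 4.18 CPM in the Ctrl-labelled libraries and 1.35, 1.38 and 0.954 CPM in the cKO-labelled ones. The groups did not overlap, but the library labelled Ctrl 3 was far above the others, and the log2 fold change of -0.99 (SE 0.43, edgeR adjusted p = 0.132) was -0.36 without it. Scd1, a desaturase that makes monounsaturated fatty acids, had 185, 98.1 and 390 CPM in the Ctrl-labelled libraries and 113, 160 and 135 CPM in the cKO-labelled ones. The libraries labelled Ctrl spanned 3.97-fold and enclosed the cKO-labelled ones. The log2 fold change of -0.72 (SE 0.44, edgeR adjusted p = 0.272) was -0.054 without the library labelled Ctrl 3. Acly, which cleaves citrate to acetyl-CoA, had 26.9, 25.8 and 38.9 CPM and 22.7, 27.6 and 23.0 CPM, and the desaturase Scd2 had 27.4, 34.8 and 45.3 CPM and 26.9, 42.8 and 24.4 CPM. Both overlapped, with log2 fold changes of -0.32 (edgeR adjusted p = 0.210) and -0.19 (edgeR adjusted p = 0.610). Without the library labelled Ctrl 3 they were -0.11 and 0.013, and without cKO 2 that of Scd2 was -0.50. Srebf1 was thus higher and Fasn and Acaca lower in the same libraries.

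Other cells in muscle also make fatty acids, and their markers were read in the same libraries. The 9 adipocyte markers (Adipoq, Plin1, Cidec, Lep, Retn, Cfd, Fabp4, Pparg and Lipe) summed to 230 to 285 CPM in the Ctrl-labelled libraries and to 230 to 283 CPM in the cKO-labelled ones, and 0 of 9 passed the test. Across all genes tested, 12.6% were higher and 11.8% lower in the cKO-labelled libraries by this test. Adipoq had 7.30, 3.52 and 13.4 CPM and 9.20, 15.2 and 4.16 CPM, and its groups overlapped. Within the group labelled Ctrl, 5 of the 9 adipocyte markers were highest in library 3 and 4 in library 1, and 6 were lowest in library 2 and 2 in library 3, whereas all 6 genes of fatty acid synthesis and 7 of 8 Schwann cell markers were highest in library 3, and 5 of each were lowest in library 2. Within the group labelled cKO, 5 of the 9 adipocyte markers were highest in library 2 and 4 in library 1, and 7 were lowest in library 3 and 2 in library 1. Of the genes of fatty acid synthesis, 5 of 6 were highest in library 2 and 1 in library 1, and 3 were lowest in library 1, 2 in library 3 and 1 in library 2. Of the Schwann cell markers, 7 of 8 were highest in library 1 and 5 lowest in library 3. The 8 Schwann cell markers summed to 160 to 231 CPM in the Ctrl-labelled libraries and to 91.5 to 148 CPM in the cKO-labelled ones, and 2 of 8, Pmp22 and Ncmap, passed, both lower in the cKO-labelled libraries. The 7 immune markers summed to 144 to 218 CPM and to 63.4 to 96.2 CPM, and 5 of 7 passed in the same direction. The 5 endothelial markers summed to 378 to 390 CPM and to 335 to 368 CPM, and 1 of 5 passed, lower. The 5 markers of fibro-adipogenic cells summed to 984 to 1178 CPM and to 650 to 1199 CPM, and 2 of 5 passed, lower. Of the defining markers, 0 were at 0 counts in any library. The part of these cells in the levels of Fasn, Acaca and the other genes was not tested.

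**Figure D3:**
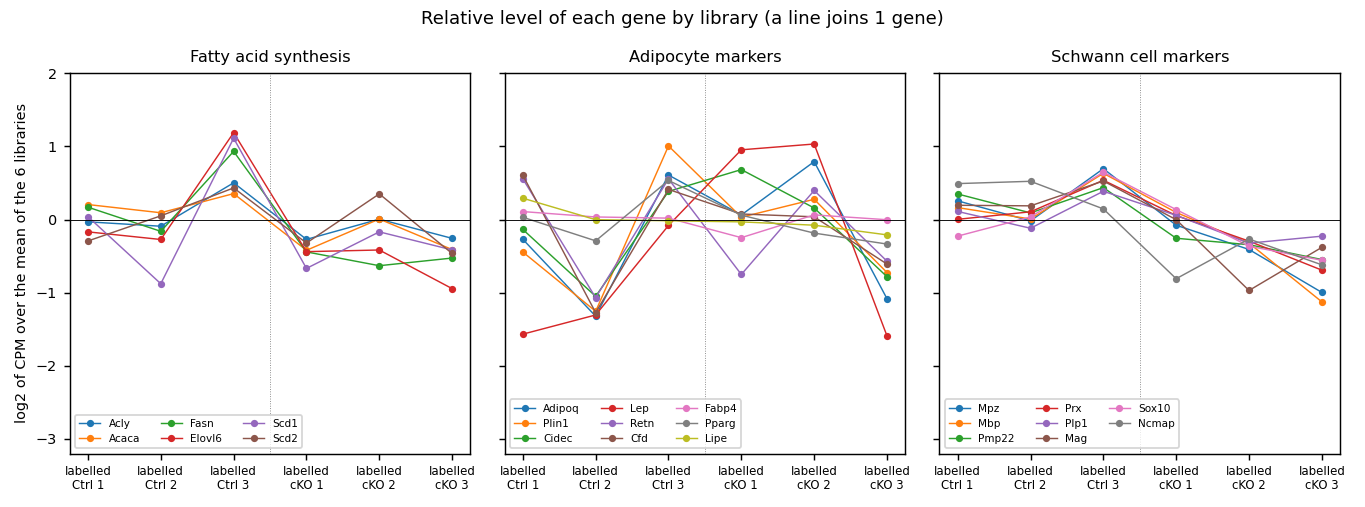
Log2 of CPM over the mean of the 6 libraries for the 6 genes of fatty acid synthesis, 9 adipocyte markers and 8 Schwann cell markers in each library, with 1 line per gene and the labelled groups parted by a dotted line. Within their group, the 6 genes of fatty acid synthesis are highest in the library labelled Ctrl 3, 6 of the 9 adipocyte markers are lowest in Ctrl 2, and the Schwann cell markers lie lower in most libraries labelled cKO.

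Libraries of the same group also differed from each other across the pathway. The library labelled Ctrl 3 held the highest value of its group for 20 of the 30 genes (66.7%), among them 10 of the 18 sterol enzymes and 6 of the 6 genes of fatty acid synthesis, against 41.6% of all genes tested. The library labelled cKO 2 was the highest of its group for 17 of the 30 (56.7%), among them 8 of the 18 sterol enzymes and 5 of the 6 genes of fatty acid synthesis, against 38.2% of all genes tested. In the cKO-labelled libraries, Cyp51 spanned 2.23-fold, Sqle 1.89-fold, Scd2 1.76-fold and Stard4 1.65-fold. Srebf1 spanned 1.02-fold in the same libraries and Fdft1 1.07-fold.

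Levels of different genes were compared as CPM per kilobase of the main transcript, the one with the longest coding sequence. On this scale Scd1 had the highest mean of the 30 genes in both groups, at 46.4 in the Ctrl-labelled libraries and 28.2 in the cKO-labelled ones. The first mean was 29.3 without the library labelled Ctrl 3, and Scd1 was number 3 in Ctrl 2, behind Mvd and Insig2. The second mean was 25.7 without cKO 2, which put Scd1 behind Insig2 (29.3) and Srebf1 (26.7). Scd1 was below Insig2 in cKO 1 and cKO 3, and below Srebf1 in cKO 1. Mvd was second in the Ctrl-labelled libraries, at 24.2, and number 12 in the cKO-labelled ones, at 5.72. Insig2 followed at 23.1 and 28.1, Fdps at 15.7 and 16.9, Srebf1 at 14.5 and 26.8 and Fdft1 at 13.2 and 20.7. Hsd17b7 moved from number 17, at 3.95, to number 7, at 12.0. Elovl6 (0.411 and 0.206) and Stard4 (0.411 and 0.514) were the lowest. These orders describe group means, and genes next to each other in them were not tested against each other.

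Of 48 further genes of the same pathways, 45 were tested, and 8 were higher and 3 lower in the cKO-labelled libraries at an adjusted p under 0.05, against 12.6% and 11.8% of all genes tested. With total counts these numbers were 4 and 14, and the median log2 fold change over all genes tested moved from -0.015 to -0.27. The shares of all genes that pass at that scaling were not counted. The higher genes numbered 4 without Ctrl 1, cKO 1 or cKO 3 and 5 without Ctrl 2, and the lower ones 5 without Ctrl 3 or cKO 2. Tecr, the reductase that completes each elongation cycle, had 191, 215 and 201 CPM in the Ctrl-labelled libraries and 412, 371 and 370 CPM in the cKO-labelled ones (log2 fold change 0.92, SE 0.09, edgeR adjusted p = 0.00194). Hacd1, the dehydratase before it, had 21.8, 25.1 and 29.4 CPM and 56.5, 37.3 and 58.4 CPM (log2 fold change 1.00, SE 0.19, edgeR adjusted p = 0.0117). Neither gene overlapped between the groups. Me1, the malic enzyme that supplies NADPH, had 101, 130 and 178 CPM and 469, 377 and 394 CPM (log2 fold change 1.6, SE 0.21, edgeR adjusted p = 0.00394). Lpin1, a phosphatidate phosphatase, had 228, 294 and 296 CPM and 690, 435 and 525 CPM (log2 fold change 1.01, SE 0.19, edgeR adjusted p = 0.0111). In both, each library labelled cKO was above each labelled Ctrl. Rnf139, a ubiquitin ligase of the endoplasmic reticulum, had a log2 fold change of 0.34 (SE 0.08, edgeR adjusted p = 0.0245), and the adjusted p was 0.0897, 0.0501, 0.0561 and 0.102 without Ctrl 1, Ctrl 3, cKO 1 or cKO 3 and 0.482 with total counts.

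The 3 further genes that were lower were Abcg1, Mlxipl and Elovl1. Abcg1, which exports cholesterol and is also expressed in macrophages, had 7.23, 8.69 and 7.88 CPM in the Ctrl-labelled libraries and 3.70, 3.01 and 3.5 CPM in the cKO-labelled ones (log2 fold change -1.22, SE 0.14, edgeR adjusted p = 0.00280). The immune markers were lower in the same libraries, and their part in this difference was not tested. Mlxipl encodes ChREBP, a transcription factor that responds to glucose and acts on genes of fatty acid synthesis. It had 166, 162 and 141 CPM and 114, 101 and 108 CPM (log2 fold change -0.54, SE 0.09, edgeR adjusted p = 0.00838). The elongase Elovl1 had 10.2, 8.93 and 9.87 CPM and 6.18, 6.80 and 6.84 CPM (log2 fold change -0.55, SE 0.11, edgeR adjusted p = 0.0122), and its adjusted p was 0.0522 without the library labelled Ctrl 1. None of these 3 genes overlapped between the groups. Among the 21 further genes of fatty acid synthesis that were tested, 5 were higher and 1 was lower, against 12.6% and 11.8% of all genes tested.

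**Figure D4:**
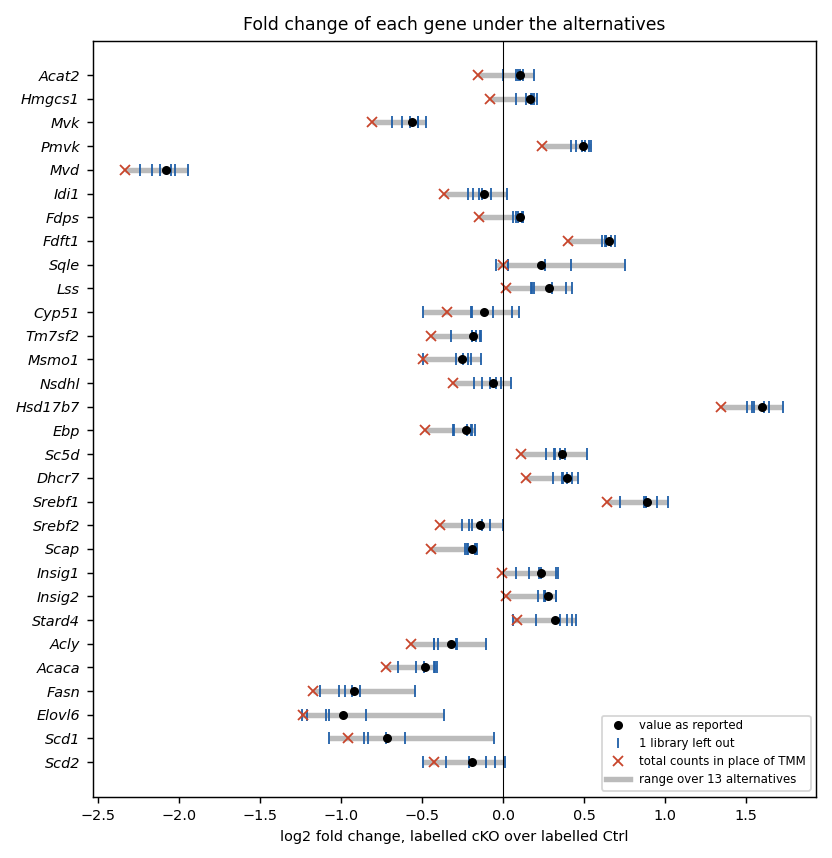
Log2 fold change of each of the 30 genes, labelled cKO over labelled Ctrl, as reported (black), with 1 library left out (blue ticks), with total counts replacing TMM factors (red crosses) and as the range over 13 alternatives (gray bars). The bars of Mvd (-2.33 to -1.95), Hsd17b7 (1.35 to 1.73), Fdft1 (0.40 to 0.69) and Srebf1 (0.64 to 1.02) stay clear of 0. Those of other genes, Mvk and Pmvk among them, do so too. Total counts give lower values than TMM factors for every gene.

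Mvd, Hsd17b7, Fdft1 and Srebf1 kept their direction and an adjusted p under 0.05 in all 13 alternatives, with the highest adjusted p at 0.00808, 0.00977, 0.0178 and 0.0337. Pmvk, Mvk, Acaca and Fasn kept their direction in all 13 but not their side of the threshold. For a single gene, an exact two-sided permutation test of 3 libraries against 3 cannot give a p below 0.1, and it gave this value for each gene whose groups did not overlap.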

How the data were processed

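Bulk RNA-Seq was measured in 6 libraries, 3 labelled Ctrl and 3 labelled cKO. Per the labels and the study's methods, the authors checked reads with FastQC 0.11.8, removed low-quality bases with Trimmomatic 0.39, used HISAT2 2.1.0 for alignment to mm10 and counted them per gene with featureCounts 1.6.2. They deposited raw counts per gene symbol, without normalization. The annotation, the use of strand and the treatment of reads with several alignments are not given in the sources used here.

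Testing used edgeR 4.0.16 in R 4.3.3 (TMM normalization, filterByExpr, quasi-likelihood test, group as the only term), with Benjamini-Hochberg adjustment over the 14180 genes tested. Genes were counted at an adjusted p under 0.05, and also with the study's fold change over 2. SE was derived from the F statistic. CPM used TMM factors (1.08 to 1.11 in the libraries labelled Ctrl, 0.865 to 0.983 in those labelled cKO). Each library is from 1 mouse, per the labels. Libraries of a group differed beyond sampling noise (chi-square over degrees of freedom 29.5 to 101). At these depths the lowest count of any of the 30 genes was 42, and error between mice exceeds counting error.

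The 30 genes, the further pathway genes and the marker lists were chosen with earlier results of these data known, so no p was computed for a list. All 30 genes were named, with those of the further pathway lists that passed, at most the 8 with the smallest p. Positions and transcripts come from GENCODE M21 (GRCm38, the assembly of mm10), and promoter windows from RefSeq. The alternatives were other scalings (size factors of DESeq2, or the total count alone), other filters (none, or 10 or more counts in each library), DESeq2 1.42.0, a replicate block, a robust fit and leaving out each library.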

Additional observations from a re-analysis of the deposited data

How the results depend on the processing

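Results are labelled cKO over labelled Ctrl. The filters, DESeq2's size factors, DESeq2's test (6 of the 30 genes higher, 4 lower) and the robust fit changed no count of genes by more than 1.5 times. Total counts in place of TMM factors moved most values down: the genes lower in the libraries labelled cKO became 7 (from 4), those also over 2-fold 2 (from 1), and the further pathway genes 4 higher (from 8) and 14 lower (from 3). The median log2 fold change became -0.33 for the 30 genes, -0.16 for the mevalonate pathway, -0.00093 from squalene to cholesterol, -0.0094 for the regulators and -0.27 for all genes tested. Signs turned with total counts for Acat2 (-0.16), Hmgcs1 (-0.080), Fdps (-0.15), Sqle (-0.00093), Insig1 (-0.0094) and Lbr, a further sterol reductase (-0.0026). With 1 library left out, Idi1 ranged from -0.22 to 0.024, Nsdhl from -0.18 to 0.052 and Scd2 from -0.50 to 0.013 (each highest without Ctrl 3), Cyp51 from -0.50 to 0.10 (highest without cKO 1, and 0.052 without Ctrl 3) and Sqle from -0.045 (without cKO 2) to 0.75. The total counts of the groups do not overlap, and which scaling is nearer the truth was not tested.

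With 1 library left out, 3 to 5 of the 30 genes were higher and 1 to 3 lower, with 1 to 2 in each direction over 2-fold, and of the further genes 4 to 7 were higher and 2 to 5 lower. Only Mvd was lower without Ctrl 1, cKO 1 or cKO 3. The median ranged from -0.17 to 0.052 for the 30 genes (highest without Ctrl 3), 0.0013 to 0.12 for the mevalonate pathway, -0.045 to 0.39 from squalene to cholesterol (lowest without cKO 2, highest without Ctrl 3), 0.080 to 0.26 for the regulators, -0.81 to -0.23 for fatty acid synthesis (highest without Ctrl 3) and -0.046 to -0.011 for all genes tested. Net39 stayed between 4.10 and 4.31.

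The values gave no sign that the mouse numbers pair the libraries. The deviations of same-numbered libraries correlated at 0.084, -0.21 and -0.0020, and those of differently numbered ones at -0.22 to 0.19. With 3 libraries per group this cannot settle whether the mice were paired. With the number as a replicate block, 3 of the 30 genes were higher and 1 was lower, 5 further genes were higher and 3 lower, and Net39 had a log2 fold change of 4.22 (edgeR adjusted p = 0.00494).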
